A study of Mus musculus with 8 samples.

Results

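Transcripts of 10 genes of the photoreceptor ribbon synapse were followed in bulk mouse retina after the neurotoxin MPTP. The genes were Ctbp2, Bsn, Pclo, Rims2, Unc13b, Cacna1f, Cacna2d4, Stx3, Cplx3 and Cplx4. They were taken by name, for their place in the active zone, the calcium channel or the fusion machinery. Earlier results of these data were known when they were chosen. All 10 were measured, each by 1 probe set, out of 19938 genes compared. The study gave male C57BL/6 mice, 6 weeks old at the start, saline or MPTP and collected retinas at 1 week (7 days) or 4 weeks (28 days). MPTP is converted in the body to MPP+, a toxin that dopamine neurons take up and that blocks mitochondrial respiration. The 4 groups were saline 1 week, MPTP 1 week, saline 4 weeks and MPTP 4 weeks, with 6 mice per group and 2 arrays per group. Each array carried RNA pooled from 4 retinas, so an array is a pool and not an animal. The sources used here do not give the dose or route of MPTP. The labels do not say if both pools of a group were drawn from different mice, so p-values measure only the spread between these arrays. For arrays, their number limits the precision.

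Rods and cones release glutamate continuously in darkness and lower the release in light. Their terminals hold a synaptic ribbon, a plate-like organelle built mainly of RIBEYE, which tethers vesicles above the active zone. Calcium enters beside the ribbon through a channel that opens over a long time without inactivating, and vesicles fuse through a SNARE complex with its own syntaxin and complexins. Mutations of the channel genes CACNA1F and CACNA2D4 cause human night blindness and cone disease.

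Upstream sequence is shown for 3 of the genes: Cplx3, whose signal differed most between groups, Ctbp2, which has 2 starts and 1 probe set, and Stx3, which shares a motif with Ctbp2. The RefSeq promoter table (GRCm38.p6, 250 bases before to 50 after a start) held 7 of the 10 genes with 8 starts, and Cacna2d4, Rims2 and Cplx4 were not matched. Each window was searched on both strands for TAATCC, the core of the sites of CRX, a homeobox factor of photoreceptors, and for TGCTGAC, a short form of the sites of the rod factor NRL. These 2 motifs do not overlap with each other. Capitals mark a match, and lower case marks the rest. All matches lay in these 3 genes, and the windows of other genes, which held no match, are not shown. The windows are Cplx3 at chr9:57606232-57606531, Ctbp2 at chr7:133081811-133082110 and chr7:133015198-133015497, and Stx3 at chr19:11819354-11819653, all on the minus strand.
Cplx3: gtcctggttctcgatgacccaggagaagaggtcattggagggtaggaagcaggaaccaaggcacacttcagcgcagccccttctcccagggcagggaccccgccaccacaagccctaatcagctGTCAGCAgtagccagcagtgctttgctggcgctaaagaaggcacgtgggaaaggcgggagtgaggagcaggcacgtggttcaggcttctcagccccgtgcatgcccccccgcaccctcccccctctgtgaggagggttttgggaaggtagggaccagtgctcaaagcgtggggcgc
Ctbp2, upstream start: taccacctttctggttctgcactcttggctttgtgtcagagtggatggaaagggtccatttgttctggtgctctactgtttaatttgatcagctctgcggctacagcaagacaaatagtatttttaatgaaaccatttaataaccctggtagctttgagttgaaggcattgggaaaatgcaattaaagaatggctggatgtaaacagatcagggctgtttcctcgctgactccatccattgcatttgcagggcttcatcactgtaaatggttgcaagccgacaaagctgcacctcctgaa
Ctbp2, downstream start: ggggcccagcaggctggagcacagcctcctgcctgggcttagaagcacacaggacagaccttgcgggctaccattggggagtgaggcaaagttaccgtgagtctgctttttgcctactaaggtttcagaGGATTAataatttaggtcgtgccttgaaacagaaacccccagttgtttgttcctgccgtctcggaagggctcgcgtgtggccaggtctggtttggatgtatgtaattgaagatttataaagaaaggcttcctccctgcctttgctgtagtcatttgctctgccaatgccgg
Stx3: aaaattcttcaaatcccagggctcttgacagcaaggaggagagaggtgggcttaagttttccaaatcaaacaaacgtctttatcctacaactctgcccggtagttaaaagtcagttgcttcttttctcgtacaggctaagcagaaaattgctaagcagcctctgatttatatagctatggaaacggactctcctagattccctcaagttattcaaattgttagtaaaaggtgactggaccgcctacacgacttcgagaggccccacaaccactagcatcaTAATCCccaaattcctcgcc
TAATCC was found in 2 of the 8 windows, at position -121 of the downstream Ctbp2 start (on the opposite strand, read as GGATTA) and at position 31 of Stx3, counted with the start as 1. It was held by 7.06% of all 32851 windows in the RefSeq set. TGCTGAC was found in 1 window, at position -126 of Cplx3 (read as GTCAGCA), against 4.67% of all windows. The matches are letters in a window and were not tested as sites.

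The values are log2 signals after RMA, a method that puts the arrays on 1 scale and gives 1 value per probe set. A difference of 1 is a 2-fold change, and levels of different genes are not compared, since each probe set has its own response. The measured markers of rods (6 of 8, median percentile 99.9 of mean signal), cones (7 of 7, 96.1) and bipolar cells (6 of 7, 91.4) were bright, and those of microglia were dim (6 of 6, 37.3). Among the ribbon genes Bsn stood at percentile 66.1 and the other 9 between 90.5 and 99.8. Array 2 of saline 1 week and array 1 of MPTP 1 week stood apart from the other 6 arrays on the first principal component (38.3% of the variance, scores 15.7 and 19.1 against -9.39 to -0.39). In bulk retina, fewer cells of a type and less RNA per cell cannot be told apart. The signal of a gene there comes from all cells that express it, so these values are not of photoreceptors alone.

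The 10 genes varied little between groups. Their means over the 4 groups spanned a median of 0.11, against 0.17 for all genes, and the pooled SD between arrays of a group had a median of 0.10 for both. Much of what variation there was followed single arrays. On saline 1 week array 2 and on MPTP 1 week array 1, 9 of the 10 genes each time lay above their own mean over the 8 arrays, against 2 on saline 1 week array 1 and 3 on MPTP 1 week array 2. The highest value of a gene lay on 1 of these 2 arrays for 9 of the 10, for 32.3% of all genes, and for 63.6% of the 1994 brightest genes. Bsn was the exception, with its highest value on saline 4 weeks array 2. Where leaving out both arrays turned the direction of a difference, that value is given beside it. Without them each group of 1 week holds 1 array, saline array 1 and MPTP array 2. A treatment difference of 1 week without both arrays is thus 1 array against 1.

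**Figure D1:**
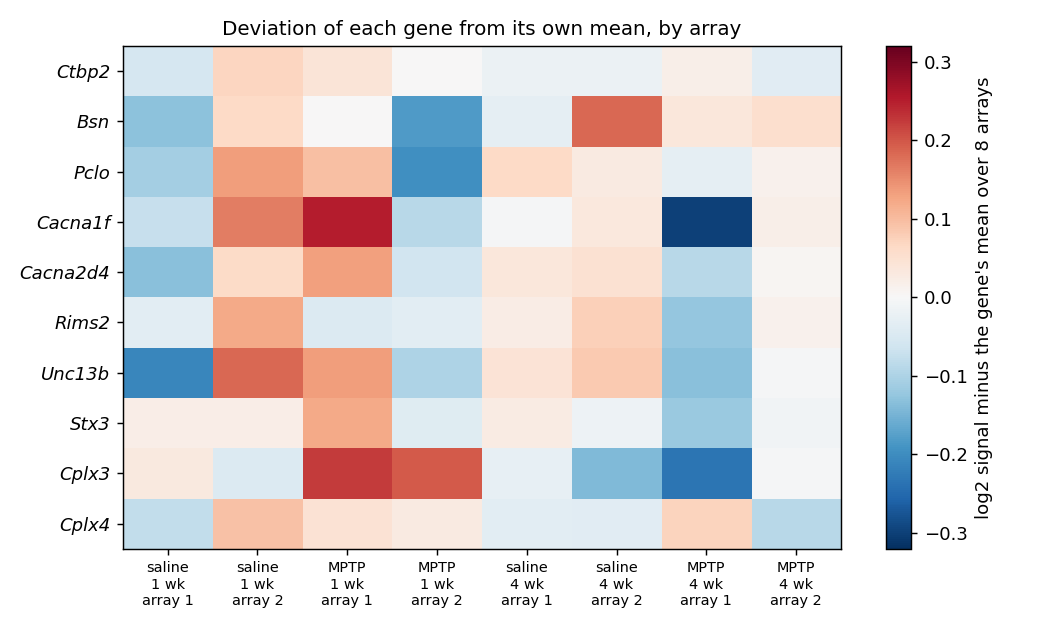
Deviation of each gene's log2 signal from its own mean over the 8 arrays (colour scale in log2 units), with genes in rows and arrays in columns. Saline 1 week array 2 and MPTP 1 week array 1 lie above the mean (red) for 9 of 10 genes, and the column of MPTP 4 weeks array 1 holds the lowest value of Cacna1f, Rims2, Stx3 and Cplx3.

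Ctbp2 encodes the nuclear corepressor CtBP2 and, from a separate start, the ribbon protein RIBEYE, and 1 probe set (10568605) reads the gene. Its signal was 8.89 and 9.02 on the saline and 8.99 and 8.95 on the MPTP arrays of 1 week, then 8.93 and 8.93 with saline and 8.97 and 8.91 with MPTP at 4 weeks. Every group overlapped with the others of its comparison. With a range of 0.12 over the 8 arrays, Ctbp2 was the steadiest of the 10 genes. The MPTP difference was 0.01 ± 0.09 (limma SE, n = 2 arrays per group) at 1 week and 0.0098 ± 0.09 at 4 weeks. RIBEYE and CtBP2 transcripts cannot be told apart in this value.

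Bsn and Pclo encode bassoon and piccolo, the giant scaffold proteins of the active zone, of which bassoon anchors the ribbon. Bsn was 7.37 and 7.57 with saline and 7.51 and 7.32 with MPTP at 1 week. At 4 weeks it was 7.47 and 7.69 with saline and 7.54 and 7.56 with MPTP. The groups overlapped at both times, with differences of -0.06 ± 0.11 and -0.03 ± 0.11. Pclo was 9.51 and 9.75 with saline and 9.72 and 9.43 with MPTP at 1 week, an overlap with a difference of -0.06 ± 0.12. At 4 weeks Pclo was 9.68 and 9.65 with saline and 9.59 and 9.64 with MPTP. Both MPTP arrays then lay below both saline arrays, but the gap of -0.05 ± 0.12 was smaller than its error.

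Rims2 and Unc13b encode RIM2, which links vesicles and calcium channels at the active zone, and Munc13-2, a priming factor for vesicles. Rims2 was 10.57 and 10.73 with saline and 10.56 and 10.57 with MPTP at 1 week, and 10.63 and 10.68 with saline and 10.48 and 10.62 with MPTP at 4 weeks. The MPTP arrays of 4 weeks lay below the saline arrays; the difference was -0.10 ± 0.09. At 1 week it was -0.08 ± 0.09, and 0.0015 without both arrays that stand apart. Unc13b held the widest gap between 2 arrays of 1 group, at 9.75 and 10.15 with saline at 1 week, and both MPTP arrays (10.10 and 9.86) lay inside it. At 4 weeks Unc13b was 10.005 and 10.05 with saline and 9.83 and 9.96 with MPTP, lower without overlap at -0.13 ± 0.14. That difference was within its error.

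Cacna1f encodes Cav1.4, the pore of the photoreceptor calcium channel, and Cacna2d4 its auxiliary subunit alpha-2-delta-4. Cacna1f was the most variable of the 10 genes, with a range of 0.55 over the arrays. It was 9.47 and 9.71 with saline and 9.80 and 9.46 with MPTP at 1 week, so the MPTP arrays held the highest and the lowest value of that time. The difference was 0.04 ± 0.14, and -0.016 without both arrays that stand apart. At 4 weeks Cacna1f was 9.54 and 9.58 with saline, and 9.25 and 9.57 with MPTP. The difference of 4 weeks was -0.15 ± 0.14, and without MPTP array 1 it was 0.0038. Cacna2d4 was 9.84 and 10.03 with saline and 10.10 and 9.91 with MPTP at 1 week (0.07 ± 0.10, overlapping). With 10.01 and 10.02 against 9.89 and 9.98 at 4 weeks, both MPTP arrays lay below saline, at -0.08 ± 0.10.

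Stx3 encodes syntaxin-3, which takes the place of syntaxin-1 at ribbon synapses. It was 10.77 on both saline arrays and 10.87 and 10.71 with MPTP at 1 week, and 10.77 and 10.73 with saline against 10.63 and 10.74 with MPTP at 4 weeks. The groups overlapped both times, at 0.02 ± 0.09 and -0.07 ± 0.09, and the value of 1 week was -0.060 without both arrays that stand apart. Cplx3 and Cplx4 encode the complexins of retinal ribbon synapses, which bind the assembled SNARE complex and restrain or promote its fusion step. Cplx4 was 11.40 and 11.57 with saline and 11.52 and 11.51 with MPTP at 1 week, and 11.44 on both saline arrays against 11.55 and 11.39 with MPTP at 4 weeks. Its differences were 0.03 ± 0.10 at both times, with the MPTP arrays inside the saline pair at 1 week and on both sides of it at 4 weeks.

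Cplx3 had the widest span of group means among the 10 genes (0.33), though it passed no test over all genes. Its signal was 9.26 and 9.19 with saline and 9.45 and 9.43 with MPTP at 1 week. At 4 weeks it was 9.20 and 9.09 with saline and 8.997 and 9.23 with MPTP. Both MPTP arrays of 1 week lay above the other 6 arrays. The 2 MPTP arrays of 4 weeks, 0.23 apart, lay on both sides of the saline pair.

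**Figure D2:**
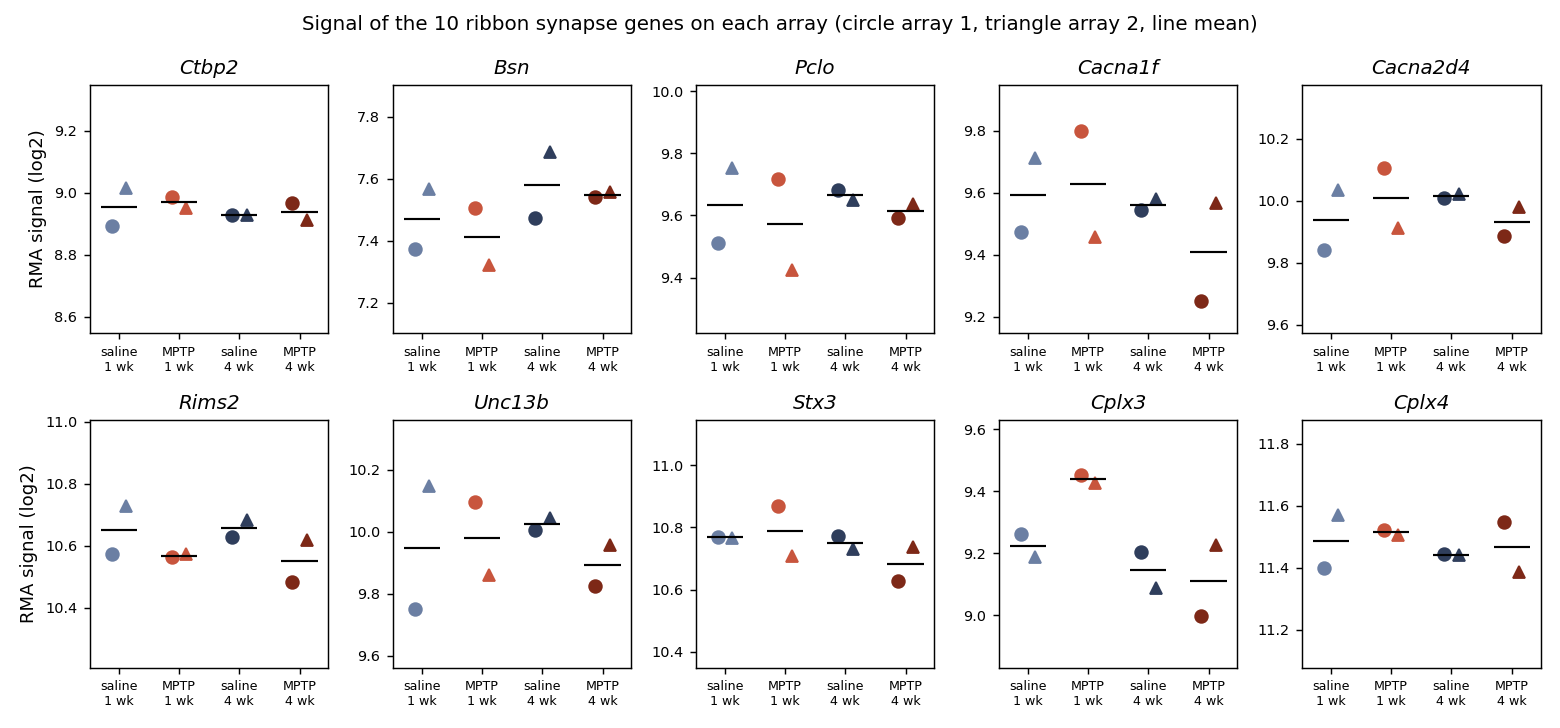
Log2 RMA signal of each gene on each of the 8 arrays (circles array 1, triangles array 2, lines the mean of 2), with a y axis of the same length of 0.8 in every panel. For Cplx3 both MPTP 1 week arrays (9.45 and 9.43) lie above the other 6, whereas for Unc13b and Cacna1f the arrays of 1 group at 1 week lie far apart (9.75 and 10.15 with saline for Unc13b, 9.80 and 9.46 with MPTP for Cacna1f).

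The early effect of MPTP was read from the 4 arrays of 1 week. None of the 10 genes passed an adjusted p of 0.05 by limma with Benjamini-Hochberg adjustment over all genes (0 of 19938 genes passed, which is 0% of the array), and the smallest adjusted p of a member was 0.9998. At an unadjusted p under 0.05 stood 0 of the 10, against 4.22% of all genes. Cplx3 had the largest difference, 0.21 ± 0.10 (unadjusted p = 0.0609), higher in 2 of 2 arrays, and it was the only member without overlap between the groups, as were 26.3% of all genes (12.5% higher and 13.8% lower). Without both arrays that stand apart its difference was 0.16, with 1 array against 1. Of the 10 differences 7 were above 0, with a median of 0.02, against 46.9% above 0 and a median of -0.0081 for all genes. The genes above the median signal, which include all 10, had a median of 0.0096. After quantile or cyclic loess normalization the median of the 10 was -0.02. Ctbp2, Cacna1f, Unc13b, Stx3 and Cplx4 then stood below 0, and Cplx3 and Cacna2d4 stayed above it. In this comparison lens markers (8 of 8 measured) and pigment epithelium markers (6 of 6) reached their highest mean signal on MPTP array 2, 8.35 and 8.44. The lens mean was 7.24 on MPTP array 1, 7.54 and 7.66 with saline, and 7.35 to 7.99 at 4 weeks. The pigment epithelium mean was 7.66 on MPTP array 1, 7.98 and 7.74 with saline, and 7.85 to 8.17 at 4 weeks. No marker of either list can be at 0 on this scale, and the dimmest were Lim2 (percentile 38.2) and Best1 (30.3). Cplx3 was 9.45 and 9.43 on these same 2 MPTP arrays.

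In the 4 arrays of 4 weeks, the late effect of MPTP was below 0 for 8 of the 10 genes and above it for 2, where 51.8% of all genes were above 0. Their median was -0.06, against 0.0043 for all genes and -0.016 for the genes above the median signal, which include all 10. Cacna1f (-0.15 ± 0.14), Unc13b (-0.13 ± 0.14) and Rims2 (-0.10 ± 0.09) were the lowest. MPTP array 1 weighed on all 3: without it Unc13b was at -0.066, Rims2 at -0.037 and the median of the 10 at -0.027. Without MPTP array 2 they were at -0.20, -0.17 and -0.13. Again 0 of the 10 passed the adjusted threshold by limma (0% of all genes did), the smallest adjusted p being 0.9999, and 0 had an unadjusted p under 0.05, against 1.91% of all genes. Lower without overlap were 4 of the 10, Pclo, Rims2, Unc13b and Cacna2d4, and higher were 0. Over all genes 35.3% had no overlap, 17.9% lower and 17.4% higher. The total of 4 of 10 is near the background, and its direction was not tested. Array 1 of MPTP 4 weeks, with the lowest score on the first principal component (-9.39), held the lowest value of all 8 arrays for 4 of the 10 genes. How many of all genes were lowest there was not counted.

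Over both times, with time as a term and 4 arrays against 4, none of the 10 differences exceeded 0.1 in size, which held for 78.1% of all genes. Of the 10, 3 were above 0, against 49% of all genes. Rims2 was lowest at -0.09 ± 0.06 (unadjusted p = 0.161) and Cplx3 highest at 0.09 ± 0.08 (unadjusted p = 0.266). Between them lay Cacna1f at -0.06 ± 0.10, Pclo at -0.06 ± 0.08, Unc13b at -0.05 ± 0.09 and Bsn at -0.04 ± 0.07. Stx3 stood at -0.02 ± 0.06, Cacna2d4 at -0.0062 ± 0.07, Ctbp2 at 0.01 ± 0.06 and Cplx4 at 0.03 ± 0.06. By limma 0 of 10 passed (0% of all genes did), with a smallest adjusted p of 0.9727 among the members, and 0 stood at an unadjusted p under 0.05, against 4.76% of all genes. All 10 genes overlapped between treatments, as did all but 2.5% of genes.

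The 95% intervals say how large a change the arrays could have missed. Over both times the lowest bound was -0.28 (Cacna1f) and the highest 0.26 (Cplx3), a 1.21-fold change at most. At 1 week the bounds ran from -0.33 (Pclo) to 0.44 (Cplx3), at most 1.36-fold, and at 4 weeks from -0.47 (Cacna1f) to 0.24 (Cplx4), at most 1.39-fold. In each of the 3 comparisons all 10 intervals lay inside a 1.5-fold change, as did those of 99.6% of all genes over both times, 96.3% at 1 week and 97.5% at 4 weeks. A p above the threshold does not show that the groups are equal, and these intervals rest on the spread between 2 pools of a group and are not adjusted for the number of genes.

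**Figure D3:**
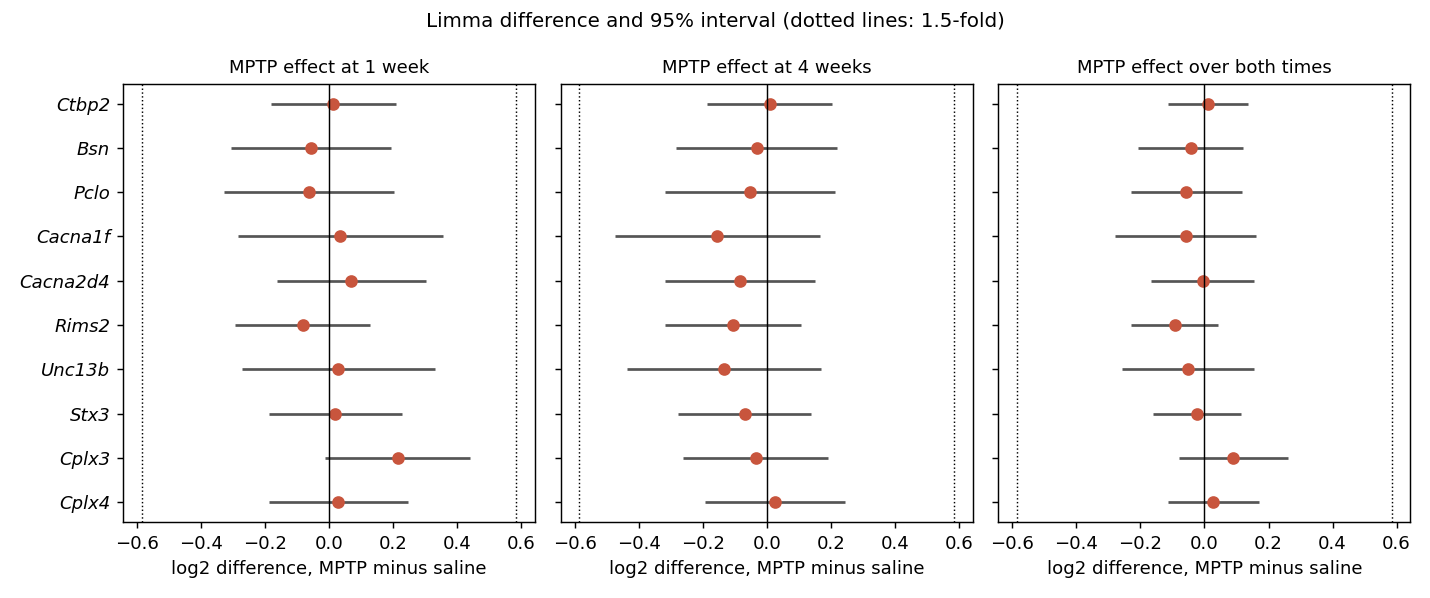
MPTP minus saline difference in log2 units (points) with 95% limma intervals (lines) for the 10 genes at 1 week, at 4 weeks and over both times, where dotted lines mark a 1.5-fold change. Every interval includes 0 and lies inside the dotted lines, and the Cplx3 interval at 1 week runs from -0.01 to 0.44.

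Whether the early and the late effect differ was tested as the difference of the 2 effects. It was -0.25 ± 0.14 for Cplx3 (unadjusted p = 0.114, adjusted p = 0.9999 by limma) and -0.19 ± 0.20 for Cacna1f, and at an unadjusted p under 0.05 stood 0 of 10 members, against 1.96% of all genes. By adjusted p 0 genes passed (0% of the array). The interval of Cacna1f reached -0.64, and for 2 of the 10 genes the interval did not lie inside a 1.5-fold difference. Over all genes 83.4% of intervals lay inside it.

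Between 1 and 4 weeks, Cplx3 was lower with MPTP by a log2 difference of -0.33 ± 0.10 (unadjusted p = 0.00921, adjusted p = 0.507 by limma), a 1.26-fold lower signal without overlap of the arrays. It was the only 1 of the 10 at an unadjusted p under 0.05, against 9.79% of all genes in that comparison (4.36% lower), and by adjusted p 0% of genes passed. With saline its change was -0.08 ± 0.10, with overlap. Without MPTP 4 weeks array 1 the MPTP change of Cplx3 was -0.21 (unadjusted p = 0.1004), and after quantile normalization it was -0.21 too (unadjusted p = 0.0640). Without both arrays that stand apart it was -0.31. The median of the 10 members was -0.06 with MPTP, against 0.01 for all genes and -0.06 for the genes above the median signal, which include all 10. It was 0.02 after quantile and 0.04 after cyclic loess normalization. Bsn was the other member without overlap in the MPTP groups, higher at 4 weeks by 0.14 ± 0.11 and not past the test, where 44.3% of all genes had no overlap (21.5% lower and 22.8% higher). In the saline groups 0 of 10 members had no overlap (27.7% of all genes), 0 stood at an unadjusted p under 0.05 (2.13% of all genes; without both arrays that stand apart 1 did, Unc13b at 0.27), and the adjusted threshold was passed by 0% of genes. These comparisons use the same arrays as the comparisons of treatment.

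Markers of the cells that hold these synapses were, like Cplx3, mostly lower at 4 weeks than at 1 week. This was not particular to them. With MPTP all 7 cone markers, all 6 measured rod markers and 5 of 6 bipolar markers had a difference below 0, with medians of -0.18, -0.09 and -0.11. With saline 6 of 7, 4 of 6 and 4 of 6 were, with medians of -0.16, -0.04 and -0.03. Bright genes as a whole shared this direction: the median over genes above the median signal was -0.06 with MPTP and -0.02 with saline. Over all genes it was 0.01 and 0.0012. Marker lists of other cells shared the direction with MPTP in part. Their medians were -0.09 (amacrine), -0.09 (horizontal), -0.08 (lens), -0.04 (ganglion), -0.03 (pigment epithelium), -0.01 (Mueller glia), 0.05 (endothelium) and 0.13 (microglia). At an unadjusted p under 0.05 by limma with MPTP stood 3 cone markers, 0 rod markers and 1 bipolar marker, all lower. Over all genes 9.79% had such a p (4.36% lower), and of 7 amacrine markers 2 were lower and 1 higher. None of these markers passed the adjusted threshold. The mean signal of the cone list was 9.58 and 9.60 on the MPTP arrays of 1 week, 9.53 and 9.56 with saline, and 9.39 to 9.43 on the 4 arrays of 4 weeks. The arrays of the 2 times did not overlap in it. Whether this accounts for part of the Cplx3 value was not tested.

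Across the 8 arrays 38 of the 45 pairs of members correlated above 0, with a median r of 0.46. The share above 0 among pairs of other bright genes was not counted, so this is not shown to be particular to the members. The pairs of highest r were Cacna2d4 with Unc13b (0.95) and Ctbp2 with Cplx4 (0.94), and the lowest was Bsn with Cplx3 (-0.61). The points share arrays, pools and normalization, and the 2 arrays that stand apart weigh on them. Among 9959 other genes above the median signal, the 5 most like the mean of the 10 members over the 8 arrays were Spata1 and Nfrkb (r = 0.99 each), C2cd5 (0.99), Thada (0.98) and Cep68 (0.98). For Cplx3 alone the nearest was C1qbp (0.99), for Rims2 Rora (0.98), for Unc13b Crebbp (0.99), for Cacna1f Cog5 (0.99) and for Ctbp2 Hivep2 (0.98). With 8 points and 9959 candidates, such values describe likeness on these arrays only.

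The wider machinery of the synapse was measured through 6 further gene lists, in which no gene passed the adjusted threshold in any of the comparisons. Of the 15 active zone and ribbon partners 10 were above 0 at 1 week, with a median of 0.07 (46.9% of all genes were above 0), and 6 at 4 weeks, with a median of -0.04. The median of 1 week was -0.041 without saline array 1 and 0.0075 with the mean of all probe sets of a gene. Unc13c, the Munc13-3 priming factor, was the only gene of them at an unadjusted p under 0.05 at 1 week, 1 of 15 where 4.22% of all genes were. It was 9.09 and 9.11 with MPTP against 8.74 and 8.93 with saline, without overlap. The difference was 0.27 ± 0.10 (unadjusted p = 0.0294, limma), 0.17 without saline array 1 and 0.16 with the mean of all its probe sets, neither at an unadjusted p under 0.05. At 4 weeks 0 of the 15 had such a p, and the smallest p belonged to Erc2, the active zone protein CAST, at -0.21 ± 0.12 (-0.31 to -0.12 with 1 array left out). Tulp1, a photoreceptor protein that also acts at the terminal, was lower at 4 weeks than at 1 week with MPTP, at -0.26 ± 0.10 (unadjusted p = 0.0299, limma).

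Of the 12 other calcium channel and calcium-binding genes measured of 13, 4 were above 0 at 1 week and 4 at 4 weeks, with medians of -0.04 and -0.02. Cabp4, the calcium-binding protein that sets the opening voltage of Cav1.4, was 9.35 and 9.14 with saline and 9.09 and 8.78 with MPTP at 1 week. At 4 weeks it was 9.09 and 9.08 with saline, and 8.78 and 8.99 with MPTP. Both MPTP arrays lay below both saline arrays at each time, although over both times the groups overlapped (9.09 on MPTP 1 week array 1 against 9.08 on saline 4 weeks array 2). The difference was -0.31 ± 0.13 at 1 week (unadjusted p = 0.0342, limma), and 4.22% of all genes had an unadjusted p under 0.05 there. It was -0.57 without both arrays that stand apart, which leaves 1 array against 1, and -0.16 without MPTP array 2. Over both times it was -0.26 ± 0.09 (unadjusted p = 0.0128, adjusted p = 0.973 by limma). Cabp4 was thus further from 0 than its channel, Cacna1f, at 1 week and over both times, a comparison of values that was not tested. Cacnb2, which encodes the beta subunit of this channel, was dim (percentile 24.7). It was 6.50 and 6.31 with MPTP against 6.08 and 6.14 with saline at 4 weeks, at 0.30 ± 0.13 (unadjusted p = 0.0476, limma). With 1 array left out this difference ran from 0.20 to 0.39. Of the 12 genes, 1 had an unadjusted p under 0.05 at 4 weeks, against 1.91% of all genes. With MPTP, Cacnb2 was also higher at 4 weeks than at 1 week without overlap, at 0.37 ± 0.13 (unadjusted p = 0.0184, adjusted p = 0.507 by limma).

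Vesicle and fusion genes, 12 measured of 14, had medians of -0.0026 and 0.0076 at 1 and 4 weeks with 6 of 12 above 0 each time. Of them 0 stood at an unadjusted p under 0.05 in either comparison, and the smallest p belonged to Slc17a7, the vesicular glutamate transporter of photoreceptors, at -0.15 ± 0.10 and -0.10 ± 0.10. At 1 week Slc17a7 was at -0.027 without saline array 2 and -0.27 without saline array 1. Napa, the SNARE-recycling protein alpha-SNAP, was lower at 4 than at 1 week with saline (-0.21 ± 0.08) and with MPTP (-0.22 ± 0.08), without overlap each time (unadjusted p = 0.0308 and 0.0268, limma). The 8 endocytosis genes had medians of -0.02 and -0.04, with Sh3gl2 (endophilin A1) at -0.20 ± 0.09 at 1 week and Dnm2 (dynamin 2) at -0.13 ± 0.09 at 4 weeks as the genes of smallest p. With 1 array left out Sh3gl2 ran from -0.27 to -0.12 at 1 week. Over both times 2 of the 8 were lower in all 4 MPTP arrays than in all 4 saline arrays, as were 1.49% of all genes. They were Sh3gl2 at -0.13 ± 0.06 (unadjusted p = 0.0597) and Cltc, the clathrin heavy chain, at -0.09 ± 0.06 (unadjusted p = 0.169).

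Genes of partners across the synapse, from both its sides and the cleft, were measured for 15 of 15. They had medians of -0.07 at 1 week and -0.06 at 4 weeks, with 5 above 0 each time. Over both times their median was -0.04, and 2 of the 15 stood at an unadjusted p under 0.05, both lower (2.47% of all genes were lower at such a p). Lrit3, which organises the postsynaptic receptor complex from the photoreceptor side, was at -0.18 ± 0.08 with overlap (unadjusted p = 0.0325). Rgs11, a GTPase-activating protein of the ON bipolar cascade, had no overlap. It was 7.30, 7.48, 7.24 and 7.35 on the saline arrays and 7.21, 7.15, 7.18 and 7.15 on the MPTP arrays, a difference of -0.17 ± 0.06 (unadjusted p = 0.0216, adjusted p = 0.973 by limma). At 4 weeks Lrit1, a synaptic protein of photoreceptors, had the smallest p of the list, at -0.16 ± 0.09. Genes of conventional (non-ribbon) synapses and of GABA and glycine, 9 measured of 10, served as a contrast (Gad1 and Slc6a9 are also amacrine markers here). They had medians of -0.03 and -0.01, with Stx1a at -0.18 ± 0.13 at 1 week, Cplx2 at -0.13 ± 0.10 at 4 weeks and Syn1 at -0.10 ± 0.06 over both times as the genes of smallest p. With 1 array left out Stx1a ran from -0.34 to -0.016, Cplx2 from -0.17 to -0.084 and Syn1 from -0.13 to -0.058, and none of the 3 passed.

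**Figure D4:**
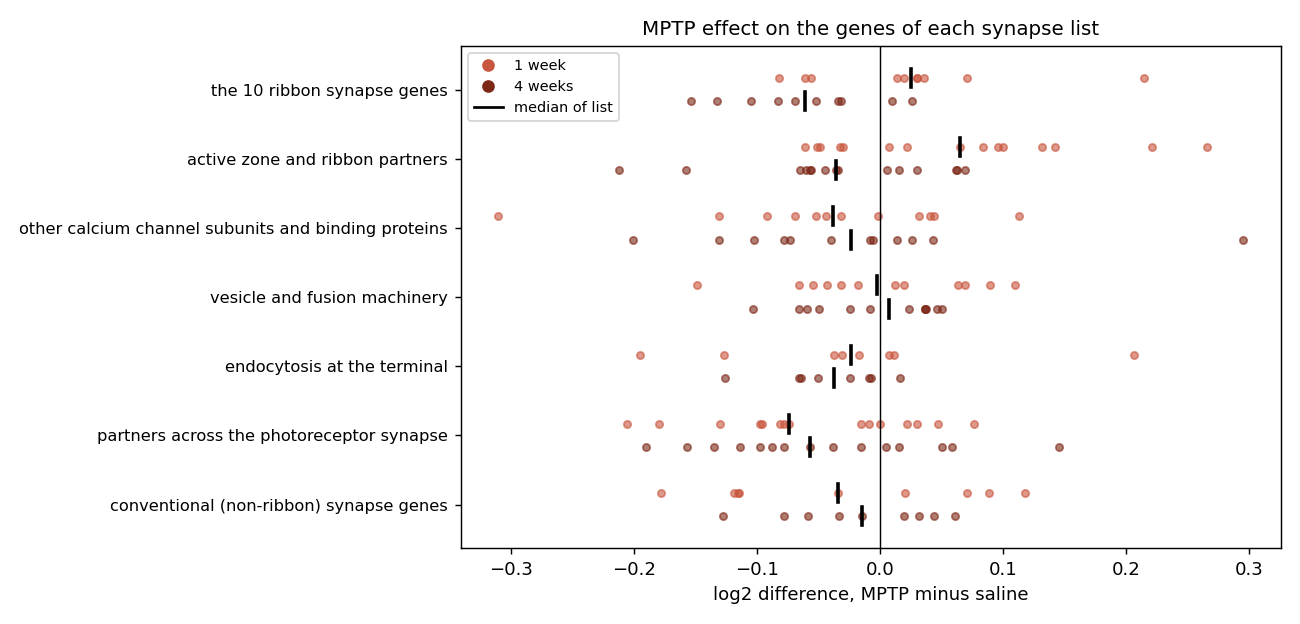
MPTP minus saline difference in log2 units of each gene (points) in the 10 ribbon synapse genes and the 6 further lists, at 1 week and at 4 weeks, with the median of each list as a black line. The medians run from -0.074 to 0.065, and the points farthest from 0 are Cabp4 at 1 week (-0.31) and Cacnb2 at 4 weeks (0.30).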

How the data were processed

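Retinal RNA of 8 pools was measured on 8 arrays in 4 groups, with 100 ng of total RNA amplified and labelled with biotin per the labels' protocols. Per the submitters' processing notes, the authors made the deposited log2 signals by RMA in Expression Console (Affymetrix), with versions and background settings not given in the sources used here. Of 28944 probe sets, 21789 name 1 gene, and the probe set of highest mean was kept for each of 19938 genes. No filter on dim genes was applied. Limma 3.58.1 in R 4.3.3 fitted a mean per group, or time and treatment as additive terms for both times together, and eBayes p-values were adjusted by Benjamini-Hochberg over all genes (threshold 0.05, two-sided). Errors are limma standard errors. The code was tested on simulated data, and figures were drawn with matplotlib 3.10.9.

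The 10 genes and the lists were chosen with earlier results of these data known. In each list the genes named are those at an unadjusted p under 0.05 without overlap, or the gene of smallest p, and Lrit3 and Cltc were added after their values were seen. Some list genes (such as Vamp2) were not analysed here. Alternatives were other normalizations, filters, probe set rules, eBayes settings, blocks and left-out arrays.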

Additional observations from a re-analysis of the deposited data

Results flagged for a closer look

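Of 20 sets of 4 arrays (each of the 10 genes in the saline and in the MPTP arrays of both times), 2 had an array farther from the rest than the 95% limit of Dixon's test, and chance gives about 1 in 20. Cacna2d4 was 9.84 on saline 1 week array 1, against 10.01 to 10.03 on the other 3 saline arrays. Stx3 was 10.73 on saline 4 weeks array 2, against 10.77 on the other 3.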

How the results depend on the processing

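In no alternative did any of the 10 genes pass the adjusted threshold in any comparison. For the genes named, 16 of 508 values under other settings and 32 of 456 with 1 array left out had the opposite sign. All were of differences smaller than their errors except Cacna1f at 4 weeks, and the cause was not tested. At 1 week, quantile normalization turned Ctbp2 (-0.014), Cacna1f (-0.0091), Unc13b (-0.0039), Stx3 (-0.038) and Cplx4 (-0.028). Cyclic loess turned Ctbp2 (-0.016), Cacna1f (-0.0028), Unc13b (-0.011), Stx3 (-0.025) and Cplx4 (-0.018). Leaving out both arrays that stand apart, with 1 array against 1, turned Cacna1f (-0.016), Rims2 (0.0015) and Stx3 (-0.060). Median centring turned Ctbp2 (-0.0082) at 4 weeks. Over both times, Cplx4 turned under quantile (-0.010) and cyclic loess normalization (-0.00049).

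With 1 array left out, differences at 1 week ran from -0.047 to 0.075 (Ctbp2), -0.15 to 0.041 (Bsn), -0.21 to 0.085 (Pclo), -0.17 to 0.23 (Unc13b), -0.14 to 0.21 (Cacna1f), -0.026 to 0.17 (Cacna2d4), -0.060 to 0.099 (Stx3) and -0.056 to 0.12 (Cplx4). At 4 weeks they ran from -0.017 to 0.037 (Ctbp2), -0.14 to 0.074 (Bsn), -0.31 to 0.0038 (Cacna1f), -0.15 to 0.080 (Cplx3) and -0.054 to 0.11 (Cplx4). Over both times they ran from -0.013 to 0.036 (Ctbp2), -0.11 to 0.0025 (Pclo), -0.15 to 0.012 (Unc13b), -0.15 to 0.023 (Cacna1f), -0.060 to 0.028 (Cacna2d4), -0.065 to 0.0062 (Stx3) and -0.0067 to 0.062 (Cplx4).

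Members at an unadjusted p under 0.05 went from 0 to 1 at 1 week (Cplx3) with bright genes only and with eBayes trend and robust, from 0 to 1 over both times (Rims2, -0.13) with quantile normalization, and from 0 to 1 with saline over time (Unc13b, 0.27) without both arrays that stand apart. With MPTP over time they went from 1 to 0 after quantile and cyclic loess normalization (Cplx3 at -0.21 and -0.22). With 1 array left out they ran from 0 (without MPTP 4 weeks array 1) to 2 (without MPTP 1 week array 2 or MPTP 4 weeks array 2, which added Cacna1f) with MPTP over time, from 0 to 1 over both times (Cplx3, without MPTP 4 weeks array 1) and from 0 to 1 for the difference of the effects (Cplx3, without MPTP 4 weeks array 2). Genes called with MPTP over time went from 0 to 1 (Rny1) without both arrays that stand apart and ran from 0 to 1 with 1 array left out (without MPTP 1 week array 1).

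Arrays of the same number did not regularly deviate together from their group means (r from -0.38 to 0.21), so the numbers were not taken as pairs. With the replicate block 0 genes were called, and in this balanced design it leaves each difference as it is. Genes at an unadjusted p under 0.05 went from 842 to 713 at 1 week and from 381 to 304 at 4 weeks, and with the numbers of MPTP 1 week exchanged they came to 947. With 2 arrays per group, the precision is limited by their number. Over all genes, those at an unadjusted p under 0.05 numbered 842 at 1 week, and 477 with only the groups compared. At 4 weeks they numbered 381, and 942 with only the groups compared. The medians of the lists moved by more than 1 SD between replicates in 42 of 371 values under other settings and 45 of 336 with 1 array left out.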
